A study of Mus musculus with 2 samples.

Results

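The mouse gene Star (ENSMUSG00000031574.8) lies on the plus strand of chromosome 8 from 25806555 to 25815982 (build mm10, GENCODE release M21), and its locus was taken as the gene body with 50 kb on each side, 25756555 to 25865982. Every DNase-seq peak, footprint and listed stretch of raised cleavage inside that interval was a member. The 2 samples gave 46 peak entries, which merged into 21 sites. From the shorter peak lists came 10 of 98813 peaks in replicate 1 and 7 of 55135 in replicate 2, and from the longer lists 20 of 159343 and 9 of 93845.

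DNase-seq marks open chromatin as stretches that the nuclease DNase I cuts more often than their surroundings. Per the labels, both samples were adrenal gland of B6CASTF1/J females aged 10 days, first-generation hybrids of the C57BL/6 and CAST strains, with 3 females named per sample and no treatment or induced mutation. They form 1 group of 2 biological replicates, so the data hold no control group, and differences between the replicates are given as values with no test. The labels do not say whether the glands of the 3 females were pooled. In whole tissue, fewer open cells and less open chromatin per cell cannot be told apart.

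The product of Star, the steroidogenic acute regulatory protein, moves cholesterol to the inner mitochondrial membrane, where the side-chain cleavage enzyme turns it into the first steroid. This transfer is the acutely regulated step of steroid synthesis in the adrenal cortex and the gonads, and corticotropin raises it through cyclic AMP. The nuclear receptor SF-1 (the product of Nr5a1), GATA factors, C/EBP factors and members of the CREB and AP-1 families are known regulators of the gene. The principal transcript, Star-201, starts at 25808474, and a second transcript, Star-202, starts 1919 bp upstream. Positions are given below as distances from the Star-201 start.

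The sequences that the results turn on are shown first, as the plus strand of the mm10 reference, 5′ to 3′. They are the C57BL/6J reference and not the CAST allele that these animals also carry. The first is the stretch ending at the start of Star-202 (chr8:25806255-25806554). It was open in both replicates and held 1 of the 3 footprints at Star that overlapped between replicates. Capitals mark 2 E-box hexamers and the bases inside that footprint in both replicates.
Upstream element: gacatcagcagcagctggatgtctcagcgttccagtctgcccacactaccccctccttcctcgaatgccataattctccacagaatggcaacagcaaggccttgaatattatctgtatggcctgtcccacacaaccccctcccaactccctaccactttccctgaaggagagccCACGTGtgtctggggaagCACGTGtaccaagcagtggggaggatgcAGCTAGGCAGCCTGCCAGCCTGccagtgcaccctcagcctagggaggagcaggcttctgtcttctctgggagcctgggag
The next is an element in an intron of Lsm1 (chr8:25792481-25792680), the second highest distal site of replicate 1 in the locus. Capitals mark the footprints of replicate 1, and the longer of them holds a match to the CTCF consensus.
Lsm1 intron element: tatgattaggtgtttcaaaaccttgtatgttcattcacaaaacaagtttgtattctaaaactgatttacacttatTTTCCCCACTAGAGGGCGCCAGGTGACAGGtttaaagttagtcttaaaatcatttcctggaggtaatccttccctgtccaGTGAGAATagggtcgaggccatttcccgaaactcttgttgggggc
An element in Bag4 (chr8:25775732-25775900) is shown because it held 3 matches to the NR5A consensus CAAGGNCA, the response element of SF-1, all on the minus strand and here in capitals.
Bag4 element: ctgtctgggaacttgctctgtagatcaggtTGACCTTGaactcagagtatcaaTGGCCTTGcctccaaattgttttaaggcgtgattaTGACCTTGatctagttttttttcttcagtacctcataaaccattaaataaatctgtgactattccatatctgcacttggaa
A stretch that lies wholly in an Ash2l intron (chr8:25819233-25819532) is shown because its NR5A match was the only one among the sites of the locus that was centred in a footprint. Capitals mark that match, on the minus strand, and an AP-1 match.
Ash2l intron element: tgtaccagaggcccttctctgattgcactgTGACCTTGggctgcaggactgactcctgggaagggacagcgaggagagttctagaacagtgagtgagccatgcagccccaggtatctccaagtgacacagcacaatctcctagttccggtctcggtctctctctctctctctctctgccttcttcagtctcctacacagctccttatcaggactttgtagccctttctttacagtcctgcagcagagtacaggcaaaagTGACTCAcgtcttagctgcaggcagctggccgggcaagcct
The last is a stretch in the 3′ UTR of Star (chr8:25813826-25813842) that begins with a match to the CTCF consensus and ends with a footprint. The bases shared by the footprints of both replicates are in capitals.
3′ UTR footprint: gccctctTGTGGCCGCC

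**Figure D1:**
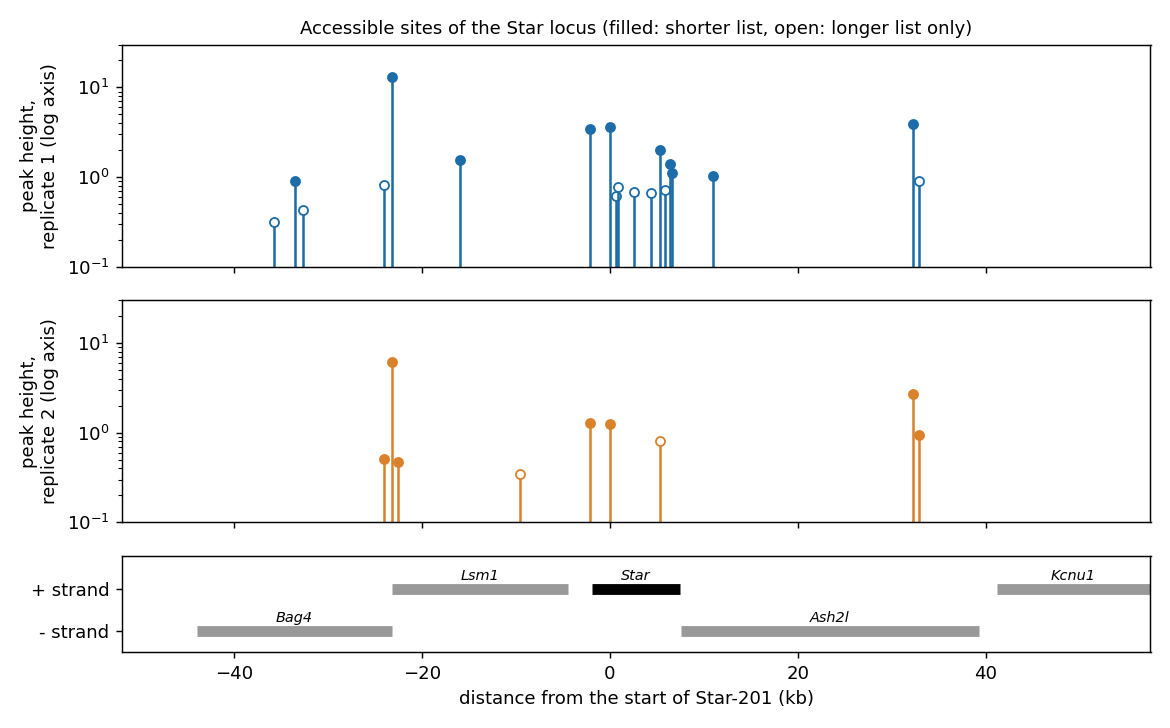
Peak height (signal, log axis) of each site of the Star locus against distance from the Star-201 start in kb, for replicate 1 (top) and replicate 2 (middle), filled in the shorter list and open in the longer list only, with the genes below. The Bag4-Lsm1 promoter stands highest in both replicates (13.2 and 6.13), and between the upstream element and the end of Star 10 sites are drawn for replicate 1 and 3 for replicate 2.

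Where both replicates had a peak, that of replicate 1 was mostly the higher, and this bears on the ratios below. Over the 48299 sites shared in the shorter lists, replicate 1 was higher at 93.0%, and the median log2 ratio was 0.73 (1.66-fold). Over all peaks of the shorter lists, shared or not, the median heights were 1.04 and 1.06. Replicate 1 also had more footprints, 339116 against 241536. The height is the signal that the authors gave for a peak, and its values were whole multiples of 1 step in each sample. If 1 step were 1 tag, a height would carry a counting error, which is given below as a counting SE of a ratio. The markers of the labelled tissue were present. Of 9 adrenal cortex markers, 9 had a promoter peak in replicate 1 and 7 in replicate 2, and 7 had a shared one (77.8%), against 63.6% of all protein-coding genes. Cyp21a1 and Mc2r lacked it. Of 8 markers of chromaffin cells, the catecholamine cells of the medulla, 7 and 4 had one and 4 were shared. Of 6 kidney markers 1 and 2 had one and 1 was shared, and of 6 adipocyte markers 6 and 5, with 5 shared. Of 6 testis and ovary markers 3 had one in each replicate and 3 were shared, and of 5 endothelial markers 3 and 2, with 2 shared. Over all protein-coding genes 67.5% had a promoter peak in replicate 1 and 64.5% in replicate 2. The part of tissue makeup in the replicate differences at Star was not tested.

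The start of Star was open in both replicates, at a moderate height. The start site (25808321 to 25808640, centred 6 bp past the Star-201 start) covered the first exon and had a height of 3.58 in replicate 1 and 1.25 in replicate 2. Its lowest FDR, the authors' adjusted p-value for raised cleavage, was 3.34e-20 in replicate 1 and 0.000351 in replicate 2. The log2 ratio of replicate 1 over replicate 2 was 1.52 ± 0.12 (counting SE), 2.87-fold. Centred on the median of all shared sites it was 0.79, and 96.0% of shared sites had a lower ratio. Among the genes with a shared promoter peak, the one at Star was higher than 30.2% in replicate 1 and 15.5% in replicate 2. Most shared promoters were therefore higher than that of Star in both samples.

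The upstream element at the start of Star-202 matched the start site closely in height. This site (25806181 to 25806600, centred 2084 bp upstream) had heights of 3.45 and 1.28 in replicates 1 and 2. Its log2 ratio was 1.43 ± 0.12 (counting SE), 2.70-fold, or 0.70 after centring, and 93.8% of shared sites had a lower ratio. In neither replicate did the heights of the start site and the upstream element differ by more than the counting error of the start site, which was 4.32% in replicate 1 and 7.05% in replicate 2. The lowest FDR of the upstream element was 5.43e-19 in replicate 1 and 0.000267 in replicate 2.

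The promoters of the neighbouring genes were as high or higher, and their replicates lay closer together. Bag4, which encodes a co-chaperone of the BAG family, and Lsm1, a subunit of the ring that binds messenger RNA during decay, share a divergent promoter 23194 bp upstream (25785141 to 25785420). That site had heights of 13.2 and 6.13, above 98.2% and 98.5% of shared sites, with a log2 ratio of 1.10 ± 0.06 (counting SE), 0.37 after centring. The promoter of Ash2l, a core subunit of histone H3 lysine 4 methyltransferase complexes, lay 32236 bp downstream (25840481 to 25840940). It had heights of 3.95 and 2.69 and a log2 ratio of 0.55 ± 0.09 (counting SE), -0.18 after centring. Ratios were also centred on the median of shared sites in the same decile of mean height. This gave -0.01 at the Bag4-Lsm1 promoter, -0.21 at the Ash2l promoter, 0.83 at the Star start site and 0.74 at the upstream element. In replicate 1 the start site of Star and the Ash2l promoter were close in height, and in replicate 2 the Ash2l promoter was higher. Kcnu1, a potassium channel gene of sperm, has 2 of its 4 transcript starts within the locus, and no site lay within 1 kb of those 2. These 4 sites were the only ones shared in the shorter lists, and replicate 1 was higher at 4 of 4.

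**Figure D2:**
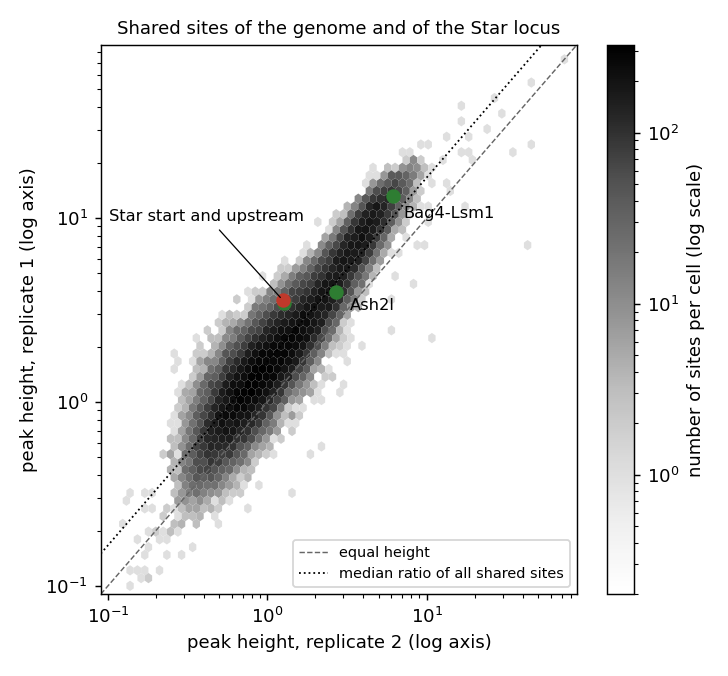
Peak height in replicate 1 against replicate 2 (both log axes) for all 48299 shared sites, in shaded cells, with the Star start site in red and the other 3 shared sites of the locus in green. The Star start site and the upstream element nearly coincide above the dotted line of the median ratio, and the Ash2l promoter lies below it.

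Most open sites of the locus were found in 1 replicate only. In the shorter lists 13 sites were present, of which 4 were shared, 6 were in replicate 1 only and 3 in replicate 2 only. Over the genome 48299 of 100010 sites of the shorter lists were shared, so most sites there were also in 1 replicate only. The other 8 sites came from the longer lists. Of the replicate 1 peaks, 4 of 10 overlapped a peak of replicate 2 (40.0%, exact Clopper-Pearson 95% interval 12.2% to 73.8%), against 51.9% over the genome, which lies inside that interval. Of the replicate 2 peaks, 4 of 7 overlapped one of replicate 1 (57.1%, 18.4% to 90.1%), against 91.5% over the genome. Such intervals cover counting error only. In the longer lists the shares were 8 of 20 against 51.7% and 7 of 9 against 86.5%. A listed base under an FDR of 0.05 in the other replicate was held by 6 of 10 replicate 1 peaks, against 78.1%, and by 6 of 7 replicate 2 peaks, against 97.7%. A gene with 50 kb on each side held a median of 5.0 shared sites, 3.0 sites in replicate 1 only and 0 in replicate 2 only. Star was 1 below the median for shared sites and 3 above it for each unshared kind. Fewer shared sites than Star were held by 37.2% of genes, fewer sites in replicate 1 only by 73.5% and fewer in replicate 2 only by 95.1%.

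The 3 sites of replicate 2 alone all flanked the neighbouring promoters. One lay beside the Bag4-Lsm1 promoter at 25784381 to 25784600 with a height of 0.514, and replicate 1 had a peak of 0.816 there in its longer list. Another, in an Lsm1 intron at 25785861 to 25786100 (0.477), had no peak of replicate 1 in either list. The last lay past the Ash2l promoter at 25841101 to 25841697 (0.936), where the longer list of replicate 1 had 0.909. Its longer list added 1 more such site, in an Lsm1 intron 9558 bp upstream (0.347, lowest FDR 0.0178). None of these lay between the upstream element and the end of Star.

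The 6 sites of replicate 1 alone were distal, meaning over 1 kb from any annotated start, and 3 of them lay in the 3′ UTR of Star. The highest was centred 5356 bp downstream (25813721 to 25813940) with a height of 1.99, above 85.8% of the 65723 distal sites of replicate 1. Replicate 2 had a peak of 0.812 there in its longer list only, with a lowest FDR of 0.0154 against 7.75e-10 in replicate 1. The other two UTR sites, centred 6356 and 6646 bp downstream, had heights of 1.4 and 1.12 and no peak in replicate 2. The Lsm1 intron element, 15894 bp upstream, had 1.55, above 77.8% of distal sites. Replicate 2 had no peak at it, but did list a stretch of 48 bases there, 34 of them inside the element, with a lowest FDR of 0.000116. The Ash2l intron element, part of a site whose last 43 bases overlap an Ash2l exon (25819183 to 25819668, centred 10951 bp downstream), had 1.02, and an intronic Bag4 site 33504 bp upstream had 0.916. The median height of distal sites in replicate 1 was 0.876, so all 6 stood above it.

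Replicate 1 also placed weak peaks along the body of Star. From the upstream element to the gene end, 10 sites were called in the longer lists. Replicate 1 had a peak at 10 of them and replicate 2 at 3, and in the shorter lists the numbers were 5 and 2. The weak peaks were at 655 bp (an intron, height 0.622), at 909, 2557 and 4355 bp (each overlapping a coding exon, 0.775, 0.675 and 0.668) and at 5870 bp (the 3′ UTR, 0.709). None of these 5 sites had a peak in either list of replicate 2.

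The deposited FDR values, given for stretches of bases and not for peaks, also differed between replicates over the gene. Bases under an FDR of 0.05 made up 26.1% of the Star gene body in replicate 1 (2464 bases) and 4.9% in replicate 2 (462 bases). Over all protein-coding genes the medians were 3.13% and 2.12%, and the share was larger in replicate 1 for 63.9% of genes. Among the 2253 genes within 20% of the length of Star, the medians were 4.94% and 4.22%, and Star stood above 96.9% in replicate 1 and 53.6% in replicate 2. The difference of 21.2 percentage points exceeded that of 99.9% of those genes, whose median difference was 0.0907. A gene with a replicate 1 share below 21.2% could not reach it, and the median there was 4.94%. That rank therefore depends on the high replicate 1 share of Star, and genes of like replicate 1 share were not compared. At an FDR of at most 0.001 the Star shares were 11.8% and 1.1%. The whole locus had 6.18% and 3.62% of its bases under 0.05, against 1.89% and 1.25% of the genome. No test of the replicate difference was possible with 1 sample on each side.

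**Figure D3:**
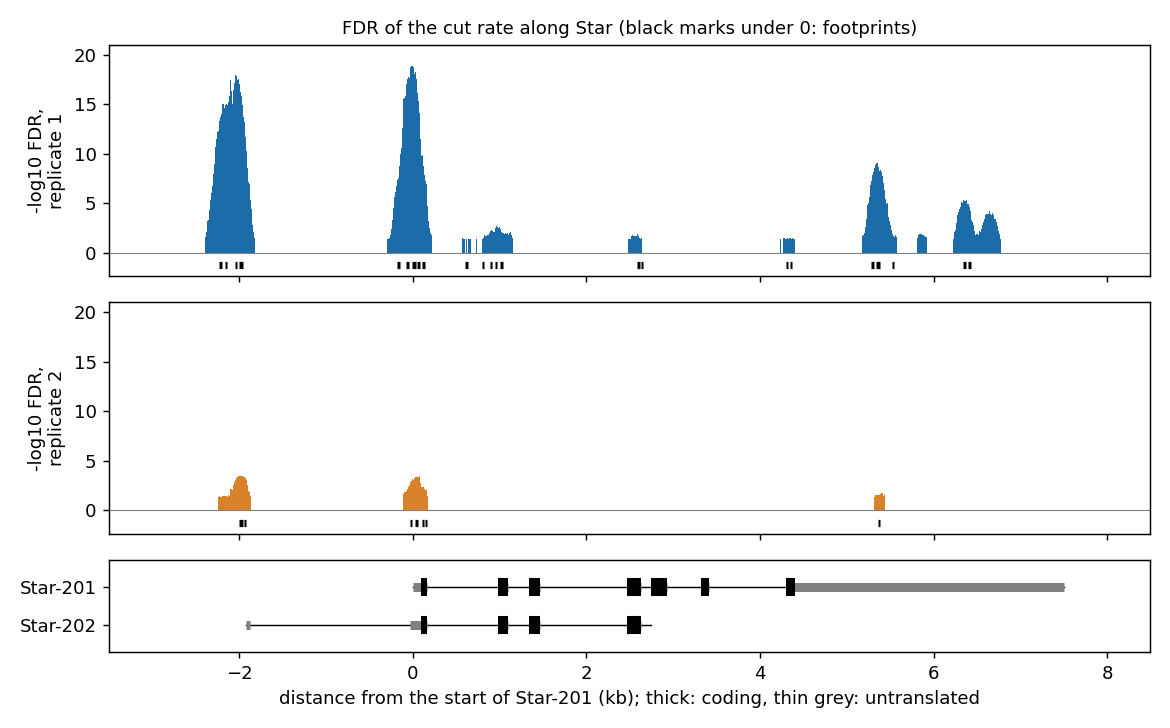
Listed cleavage FDR as -log10 (linear axis) against distance from the Star-201 start in kb, for replicate 1 (top) and replicate 2 (middle), with footprints as black marks under 0 and the 2 transcripts at the bottom. Replicate 1 has listed stretches at all 10 sites between the upstream element and the 3′ UTR, and replicate 2 at the upstream element, the start and 1 UTR site.

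Footprints are short protected stretches inside open chromatin where a bound factor can shield the DNA. The locus held 55 in replicate 1, of which 16 overlapped one of replicate 2 (29.1%, against 34.4% over the genome), and 27 in replicate 2, of which 17 overlapped one of replicate 1 (63.0%, against 49.5%). The Star gene and the neighbouring promoters differed in this count. From the upstream element to the end of Star, 3 of 25 replicate 1 footprints (12.0%) overlapped one of replicate 2. Of the 7 replicate 2 footprints there, 3 overlapped one of replicate 1 (42.9%). At the Bag4-Lsm1 and Ash2l promoters the numbers were 13 of 21 (61.9%) and 14 of 19 (73.7%). The Star count takes in sites without a replicate 2 peak, as replicate 2 had a peak at 3 of the 10 sites there. The shares were therefore not taken over like sites. At the Ash2l promoter 6 of 9 replicate 1 footprints overlapped one of replicate 2, and at the start site of Star 1 of 4. These 2 sites were close in replicate 1 height. The 2 differed in replicate 2 height (2.69 and 1.25). The parts of height and of missing replicate 2 peaks in these counts were not tested.

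In the upstream element, the footprint of both replicates ran from 2001 to 1978 bp upstream in replicate 1 (24 bases) and from 1999 to 1978 bp in replicate 2 (22 bases). No searched motif was centred in it. The E-box CACGTG, read by factors of the bHLH and bHLH-zip classes, matched at 2045 to 2040 and at 2027 to 2022 bp upstream. The first base of the former was the last of a replicate 1 footprint, and the latter lay in none. It is present in 7.75% of the promoter windows of all protein-coding genes, which run from 250 bases before to 50 after the start. A GATA match (the letters GATA after A or T and before A or G, in 27.6% of promoter windows) at 2111 to 2106 bp and an AP-1 match (TGANTCA, in 6.91%) at 2238 to 2232 bp were outside footprints. The AP-1 match also lay outside the stretch shown above and outside the promoter window of Star-202. A motif match is a description of the letters only.

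At the start site the replicates placed their footprints differently. Replicate 1 had footprints at 79 to 70 bp upstream, across the start from 6 bp before to 13 bp after it, and at 52 to 59 and 108 to 114 bp downstream. Replicate 2 had them at 36 to 27 bp upstream and at 29 to 37, 101 to 109 and 141 to 148 bp downstream. Only the pair around 108 bp overlapped, by 2 bases. A GATA match on the minus strand, 38 to 33 bp upstream, was centred in a footprint of replicate 2 and in none of replicate 1. No match to the NR5A, C/EBP (TTGCNNAA), CRE (TGACGTCA), AP-1 or TATAAA consensus was in the window from 250 before to 50 after the Star-201 start. Those letters occur in 6.24%, 10.5%, 2.43%, 6.91% and 12.6% of all such windows. Only exact letters were searched, so a site that departs from a consensus would be missed. In the 3′ UTR, footprints from 5359 to 5368 bp in replicate 1 and from 5357 to 5368 bp in replicate 2 shared 10 bases. A match on the minus strand to the CTCF consensus (CC, then AG after 3 bases, then GGC after 2), at 5352 to 5363 bp, was centred in the replicate 2 footprint.

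Full matches to the consensus of SF-1 were found in 3 sites of the locus, all away from the start. All of these full matches lay in peaks of the longer lists and outside every peak of the shorter lists. The NR5A consensus had 0 matches in the 4 shared sites, and its shorter form AAGGNCA, which any full match also contains, had 1, at the Ash2l promoter. The Ash2l intron element held a full match at 10789 to 10796 bp downstream, centred in a replicate 1 footprint of 9 bases. The wider site around it also held a match to the NR4A consensus AAAGGTCA, read by the orphan receptor Nur77, at 10732 to 10739 bp. That site held 2 AP-1 matches as well, and neither they nor the NR4A match lay in a footprint. The NR4A match and the AP-1 match at 11144 to 11150 bp were outside the stretch shown above. The Bag4 element, centred 32658 bp upstream, held 3 NR5A matches in 169 bases. It was a weak peak of replicate 1 in the longer list only (height 0.428, lowest FDR 0.00764), 39.6% of it was repeat sequence, and none of the 3 matches lay in a footprint. The Lsm1 intron site of replicate 2 beside the Bag4-Lsm1 promoter (0.477, lowest FDR 6.35e-05) held 1 match at 22600 to 22593 bp upstream, in no footprint. An NR5A match within 75 bp of the centre was present in 8.96% of all shared distal sites. The match of the Ash2l intron element, 159 bp from the centre of its site, would not count by that rule. The CTCF match of the Lsm1 intron element lay in a footprint of 30 bases, and 26.3% of shared distal sites had such a match.

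Star was compared with the other genes of steroid synthesis, a list of 22 with Star itself. Of these, 18 had a promoter peak in both replicates (81.8%), against 63.6% of all protein-coding genes. Of the 4 without one, Cyp21a1 and Cyp11b2 encode the steroid 21-hydroxylase and the aldosterone synthase, Hsd3b1 a 3 beta-hydroxysteroid dehydrogenase, and Mc2r the corticotropin receptor. In height the Star start site was below the shared promoter peak of 12 of these genes in replicate 1 and 13 in replicate 2. Its neighbours in the order of replicate 1 were Cyp11a1, the side-chain cleavage enzyme (3.74), and Nr5a1 (3.24). The log2 ratio of Star over Cyp11a1 was -0.06 ± 0.09 (counting SE) in replicate 1 and -0.58 ± 0.13 in replicate 2. Over Nr5a1 it was 0.14 ± 0.09 and -0.75 ± 0.13. In replicate 1 Star lay within 2 counting SEs of both neighbours, and in replicate 2 it was the lowest of the 3. Of the 18 shared promoters the Star start site had the highest centred log2 ratio, 0.79, followed by Npc1, a lysosomal cholesterol transporter (0.70), and Fdxr and Tspo (0.63 each). The lowest was that of Nr5a1, at -0.10.

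By the share of the gene body under an FDR of 0.05, Star was the fifth of the list in replicate 1 and the ninth in replicate 2. The list medians were 8.17% and 3.47%, and the share was larger in replicate 1 for 19 of 22 genes, against 63.9% of all protein-coding genes. The change between replicates was largest at Nr5a1 (32.3% and 0.877%), followed by Star (26.1% and 4.9%), the lipase gene Lipe (36.3% and 17.2%), Hsd3b1 (23.1% and 6.89%) and Cyp21a1 (15.5% and 0%). At Cyp11a1 it was 11.4% and 3.24%. Shares close in both replicates were found at Nr0b1, which encodes the repressor DAX-1 (29.5% and 30.6%), and at Fdxr, the reductase of mitochondrial P450 enzymes (16.0% and 13.5%). At Cyp11b2 the share was higher in replicate 2 (0.32% and 13.0%). The replicate difference of Star was therefore seen at several genes of the list and not at others.

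**Figure D4:**
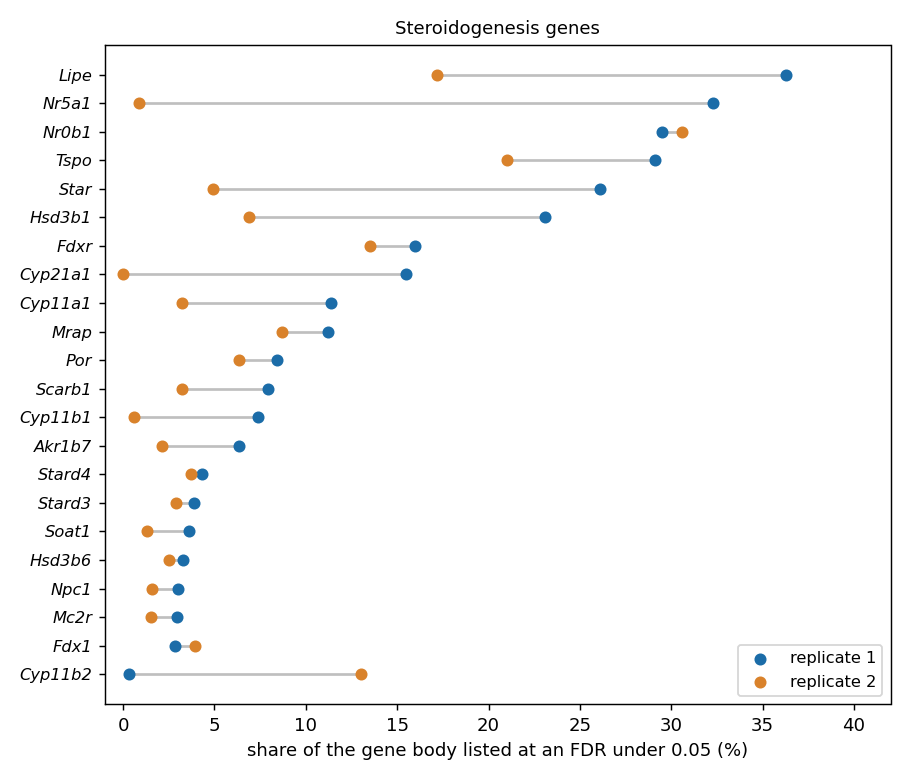
Share of the gene body under an FDR of 0.05 in percent for the 22 genes of steroid synthesis, with 1 point for each replicate. Star has 26.1% in replicate 1 and 4.9% in replicate 2, Nr5a1 shows the widest gap, and Nr0b1 shows points close together.

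The promoters most like that of Star were found by the distance between the log2 heights of the 2 samples, over 13944 genes. The nearest was Ifi27, an interferon-induced gene (3.61 and 1.24, distance 0.0152), followed by Mpp1, A530016L24Rik, Fsd1 and 5430403G16Rik (0.0563 to 0.0864). When the log2 numbers of shared sites and of all sites within 50 kb were added to the measure, the nearest were Ass1, S100a4, Fstl1, Ecm1 and Mtm1 (0.249 to 0.378). With only 2 samples, such likeness rests on 2 heights for each gene. The limits of the locus were set by distance alone. The nearest site outside on the left, at 25754201 to 25754560, had heights of 10.1 and 4.87 and lay at the starts of Ddhd2 and Gm17484. The nearest on the right, at 25911601 to 25911820 in Kcnu1, had 0.261 in replicate 1 only. The outermost sites inside were a Bag4 intron site of replicate 1 at 25772722 to 25772820 (0.314) and the site past the Ash2l promoter.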

How the data were processed

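DNase-seq of adrenal gland was analysed from 2 samples of 1 group. Each deposited file came from 1 sample aligned to mm10, per the deposited file listing. Which programs aligned the reads and called peaks and footprints is not given in the sources used here. The authors deposited 2 peak lists per sample with a height per peak, a signal on a scale they set. Of its values, 100.0% lay within 0.05 steps of a whole number of steps, where a step was 0.00668 for replicate 1 and 0.0062 for replicate 2. Reading 1 step as 1 tag is an inference, and total read depth was not used here. The deposited FDR values are adjusted p-values for stretches of bases under 0.05. Each deposited footprint carries the same p-value, 0.01, read as the threshold of its call. The CAST genome was not used as a reference, so reads over bases that differ between the strains may have been lost.

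The main list was the shorter one, in which the lowest FDR of each peak was 0.001 or below. Peaks of all lists overlapping by at least 1 bp were merged into sites, with the highest height per replicate. Promoter sites lay within 1 kb of a GENCODE M21 start. Ratios were log2 of replicate 1 over replicate 2, and counting SEs came from the steps. Motifs were exact letter matches on both strands. Every peak of the locus was reported; sites shared or highest were described in full, and members of the steroid synthesis list were named for their order beside Star or for the size of their replicate difference. The latter names, the gene body share, the comparison by length and the choice of sequences were made after values were seen. The members and lists were chosen with earlier results of these data known. Alternatives were the longer list, windows of 25 and 100 kb, stricter overlap, other centrings and each replicate alone. Functions were tested on simulated data. Python 3.11.15, numpy 2.4.6, scipy 1.17.1 and pysam 0.24.0 were used.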

Additional observations from a re-analysis of the deposited data

How the results depend on the processing

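The number of shared sites was 4 with an overlap of at least 50%, a window of 25 kb or the 50% highest peaks, and 7 in the longer list and with a window of 100 kb. With 1 replicate left out, when all sites of the other count, it ranged from 7 to 10. The log2 ratio of the Star start site was 1.52 as given, 0.79 centred on all shared sites and 0.83 centred by height decile, and replicate 1 was higher in each. Footprints of replicate 1 that overlapped one of replicate 2 numbered 16, or 13 with an overlap of at least 50%. Inside peaks of the shorter list only, they numbered 8. All footprints of 1 replicate alone ranged from 27 to 55. The median centred log2 ratio of the shared sites ranged from 0.32 to 0.54, and no distal site was shared in the shorter list, so it could not be had for distal sites alone. The share of replicate 1 peaks with a peak of replicate 2 ranged from 40.0% to 53.3%, and the number of steroid synthesis genes with a shared promoter peak from 15 to 20. No paired analysis was possible because there was 1 group. With 2 samples, no difference between replicates could be tested, and weak peaks near the threshold of a list can be missed in either.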
